A study of Mus musculus with 9 samples.

Results

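Lysine lack under an adipogenic hormone cocktail was examined here by comparing the 3 Lysfree libraries with the 3 Differentiated libraries of 3T3-L1 cells, 6 of the 9 libraries of the series, taken by their labels and compared 3 against 3 across all genes. 3T3-L1 is a mouse fibroblast line that serves as a preadipocyte model. Confluent cells had been held for 3 days and then kept for 3 days in medium with 10% serum, arginine, dexamethasone at 1 μM, the phosphodiesterase inhibitor isobutylmethylxanthine (IBMX) at 0.5 mM, rosiglitazone at 1 μM and insulin at 10 μg/mL. Differentiated cells also received 800 μM lysine and Lysfree cells received 0 μM, so that both groups carried every other agent, and the study's own measurement found traces of lysine in the lysine-free medium. The other 3 libraries, of Undifferentiated cells, are given as context and entered only 1 alternative fit, on all 9 libraries. By the study's methods, cells were held at confluence in another DMEM with 10% bovine calf serum, listed without the hormone cocktail. Both compared groups had fetal bovine serum, so Undifferentiated cells differ from them in medium and serum as well as hormones. The methods do not state when Undifferentiated cells were collected. All libraries come from a single line of immortal cells, and no source used here says that the libraries labelled 1 to 3 were separate cultures, so that p values measure the spread between these libraries, which may be technical.

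Lysine is an essential amino acid that cells must take up. Uncharged tRNA activates the kinase GCN2 (Eif2ak4), which raises translation of the transcription factor ATF4 and through it transcription of amino acid synthesis, transport and tRNA charging genes. Amino acids also hold mTORC1 active on the lysosome, and when they run short the loss of folliculin activity lets TFEB and its relatives enter the nucleus and turn on lysosomal genes. Fat cell formation follows another order, in which the early factors C/EBPβ and C/EBPδ, induced by dexamethasone and IBMX, lead to PPARγ and C/EBPα, and these switch on the genes of lipid storage.

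In Lysfree cells many genes of the fat cell state, of cholesterol synthesis, of fuel oxidation and of cell division were lower, while many lysosomal and fibroblast genes and the cytokine gene Il6 were higher and matrix genes changed both ways. Of 23 listed ATF4 and stress response targets, 16 were not called, 4 were higher and 3 lower, beside 11.4% and 14.6% of all genes at 1 FPKM or more. The lysine carrier gene Slc7a2 rose from near 0. Levels are deposited FPKM (fragments per kilobase of gene length, scaled to the library total), and differences are log2 fold changes, Lysfree over Differentiated, fitted to the deposited read counts with edgeR. A differentially expressed gene (DEG) had an edgeR adjusted p under 0.05 and a change of at least 2-fold, and "rose" and "fell" are used of DEGs alone. Counts on genes summed to 16044046 to 19223863 per Differentiated library and 16754573 to 18089153 per Lysfree library, and a group with at most 3 counts in each library is called at the floor. Fold changes against such a group are lower bounds. An exact permutation test of 3 libraries against 3 allows no p under 0.1, so all p values come from the fit across genes. Of the 347 genes chosen for naming, 161 overlap another annotated gene, and reads of the shared bases could be assigned to either. Partners that held at least 5% of the counts of a named gene in either group, which 55 of the 347 genes had, are named at the end of a paragraph.

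Lysfree 1 stood apart from the other Lysfree libraries. Across genes, its log2 levels correlated with theirs at r = 0.981, against 0.994 between Lysfree 2 and 3 and 0.993 among Differentiated libraries. Among 7306 genes at a mean of at least 5 FPKM in Lysfree cells, 216 lay more than 2-fold below both other libraries in Lysfree 1 and 19 lay more than 2-fold above. The 216 genes were short, with a median length of 881.5 bases against 4000 over all 7306, and included Rps15, Rpl36, Rpl23a and Ubb. The 19 were shorter still, with a median of 522 bases. The few genes that departed in the other libraries of either group were short as well, with medians of 94 to 514 bases. Mitochondrially encoded genes took 1.60% of counts in Lysfree 1, against 0.879% and 0.906% in Lysfree 2 and 3 and 1.29% to 1.38% in Differentiated libraries. Many results that leaned on Lysfree 1 are therefore given with and without it, and its part in them was not otherwise tested. Some list counts below are given only with it. Without it, 24 adipocyte identity, 6 chemokine and inflammatory and 8 other matrix genes fell, and 3 G1 genes rose. In that fit 23 cholesterol, 15 branched-chain breakdown and 16 glycolysis genes fell.

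Of 54532 genes in the table, 24130 had a count in at least 1 of the 6 libraries, and 4507 of them (18.7%) were DEGs. Of these, 1963 (8.14% of genes tested) were higher and 2544 (10.5%) were lower in Lysfree cells. Among the 12040 genes at 1 FPKM or more in either group, 11.4% were higher and 14.6% lower. Counts of list members below are to be read beside these shares. FPKM did not overlap between the groups for 11247 genes (46.6%), including 1913 of the DEGs that were higher and 2522 of those that were lower. The median log2 fold change over all genes tested was -0.06, and over the 12040 genes at 1 FPKM or more in either group it was 0.03. The falls were the deeper changes, with 703 genes lower by at least 8-fold and 318 higher by at least 8-fold. In 507 of the DEGs that were lower, no Lysfree library held more than 3 counts, and in 244 of those that were higher, no Differentiated library did. Without Lysfree 1, 2344 (92.1%) of the DEGs that were lower and 1740 (88.6%) of those that were higher were called again, and 0 changed direction. Protein-coding genes made up most of the calls, 1679 higher and 2046 lower of 15708 tested, and lincRNAs gave 73 higher and 114 lower of 1515. Among 1147 genes that the deposited table assigns to a transcription factor family, 162 were higher and 108 were lower.

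**Figure D1:**
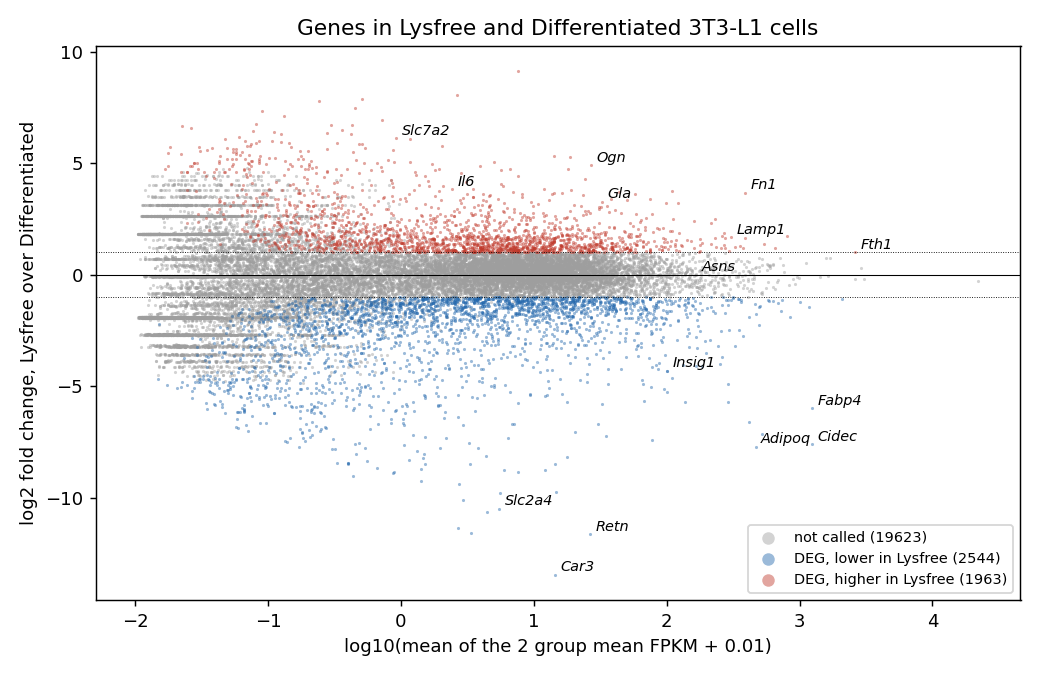
Log2 fold change, Lysfree over Differentiated, against the log10 of the mean FPKM of the groups, 1 point for each of 24130 genes tested. Red points are the 1963 DEGs higher and blue points the 2544 DEGs lower in Lysfree cells, dotted lines mark a 2-fold change, and the abundant fat cell genes Fabp4, Cidec and Adipoq lie far below 0 while Fn1 and Fth1 lie above it.

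The labelled cell type was checked against its markers. Both groups expressed the fibroblast genes Col1a1, at 360.3, 371 and 354 FPKM in Differentiated 1 to 3 and 295, 340.5 and 345 FPKM in Lysfree 1 to 3, and Pdgfrb, at 15.2, 15.5 and 14.9 FPKM and 52.2, 54.3 and 56.2 FPKM. The stem cell antigen gene Cd34 had at most 5 counts in any of the 6 libraries. Of 12 macrophage markers only 6 had any count in the 6 libraries, Ptprc, Adgre1, Itgam and Tyrobp were among those with none, and no library held more than 4 counts of Csf1r. The summed level of the 6 was 7.87 to 8.18 FPKM in Differentiated and 8.73 to 9.89 FPKM in Lysfree libraries, most of it Cd14, which was not called (0.14). Among them the lysozyme gene Lyz2 rose 5.13-fold and the lipid receptor gene Trem2 fell 40.2-fold. Endothelial markers summed to 0.112 to 0.26 FPKM in Differentiated and 0.659 to 0.703 FPKM in Lysfree libraries, and of 6 with a count Tek and Vwf rose, to Lysfree means of 0.156 and 0.325 FPKM, and 0 fell. Muscle, bone and cartilage markers summed to 15.8 to 18.7 FPKM in Differentiated and 31.1 to 33.7 FPKM in Lysfree libraries. Of 12 with a count (median log2 fold change -0.72) Sox9, which is also a preadipocyte gene, rose 3.38-fold, and Des, Alpl and Comp fell, to Lysfree means of 1.07, 1.03 and 0.0532 FPKM. Of the epithelial markers, Cdh1 stayed at the floor and Epcam had no count, and the keratin genes Krt8, Krt18 and Krt19 fell to the floor, Krt19 from 6.48, 6.14 and 6.81 FPKM to 0.0614, 0 and 0.0278 FPKM, at least 67.8-fold.

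The fat cell genes were far lower in Lysfree cells. Of 28 adipocyte identity and lipid droplet genes with a count (29 listed), 25 fell and 0 rose, with a median log2 fold change of -4.03 against -0.06 over all genes tested. Their summed level was 9872 to 10264 FPKM in Differentiated and 789 to 943 FPKM in Lysfree libraries, near the 691 to 833 FPKM of the Undifferentiated libraries. In bulk RNA, fewer cells that express a gene and less RNA of it per cell cannot be told apart.

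Adipoq, which encodes the hormone adiponectin, stood at 947, 914 and 936 FPKM in Differentiated 1 to 3 and at 3.96, 3.61 and 4.96 FPKM in Lysfree 1 to 3. All Lysfree libraries were also below the Undifferentiated mean of 57.8 FPKM. It fell 213-fold, or -7.74 ± 0.12 (SE) on the log2 scale, with an adjusted p of 2.5e-20 in edgeR. Fabp4, the fatty acid carrier of fat cells, fell from 2490.0, 2304 and 2542 FPKM to 33, 37.7 and 39.5 FPKM, 63.6-fold. Cidec, which fuses lipid droplets, fell from 2477, 2421 and 2458 FPKM to 13.9, 10.6 and 11.7 FPKM, 195-fold. For both genes the replicates lay close together and the groups far apart, and Fabp4, Cidec and Gpd1 were among the 5 largest losses of FPKM of any gene. Gpd1, which makes the glycerol backbone of triglycerides, had 1043, 1006 and 1049 FPKM in Differentiated and 6.44, 6.34 and 8.37 FPKM in Lysfree libraries. Plin1, the coat protein that guards lipid droplets, had 195, 199 and 196 FPKM and 5.29, 4.66 and 4.69 FPKM, a 38.6-fold fall.

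Some fat cell genes went down to single reads. Slc2a4, the insulin-responsive glucose transporter GLUT4, had 10.7, 11.3 and 10.7 FPKM in Differentiated libraries and 0, 0 and 0.0148 FPKM in Lysfree libraries, at least 215-fold lower when the Lysfree group is set at the floor. Retn, the hormone resistin, had 56.8, 50.7 and 50.6 FPKM against 0, 0 and 0.0326 FPKM, at least 469.9-fold lower. Car3, a carbonic anhydrase abundant in fat, had 29.1, 27 and 30.5 FPKM against 0 in all Lysfree libraries, at least 467-fold lower. No Lysfree library reached the level of any Differentiated library for these genes. The fat cell receptors for lactate (Hcar1), niacin and ketone bodies (Hcar2) and long-chain fatty acids (Ffar4) were likewise at the floor in Lysfree cells, at least 125-fold, 166-fold and 45.8-fold lower. Cd36, a fatty acid receptor, had 435, 422 and 464 FPKM in Differentiated and 97.2, 57.6 and 63.5 FPKM in Lysfree libraries, and Lpl, the lipase that frees fatty acids from lipoproteins, had 424, 420.5 and 426 FPKM and 238, 162 and 163 FPKM. For Cd36 all 3 Lysfree libraries stayed above the Undifferentiated mean of 16.6 FPKM.

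**Figure D2:**
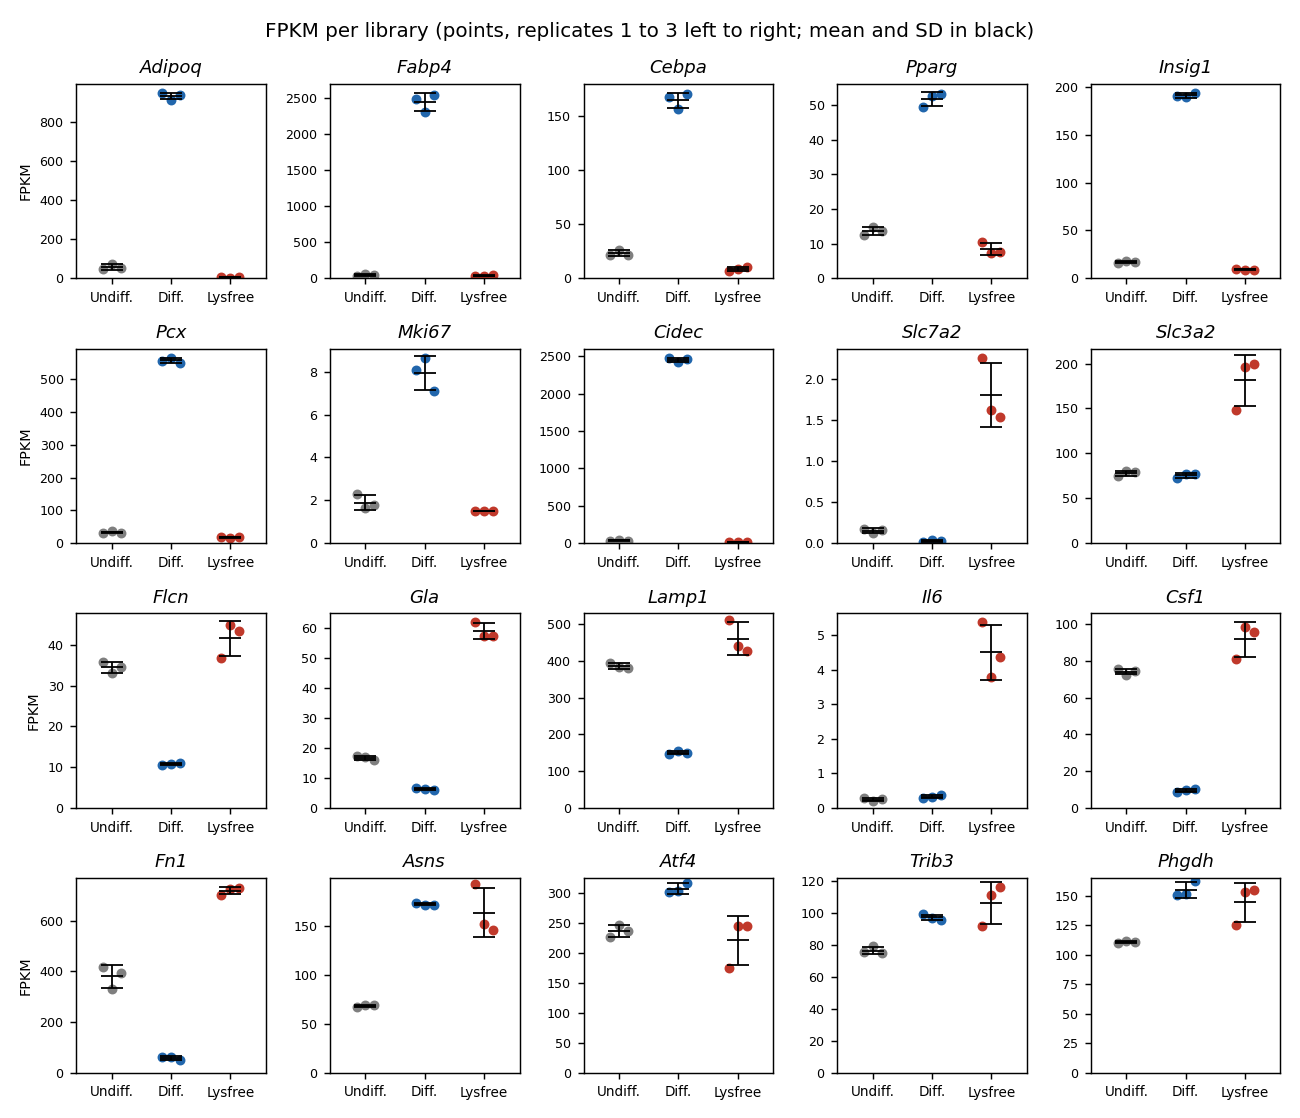
FPKM of 20 genes in each library (linear axes from 0), with points for replicates 1 to 3 of Undifferentiated, Differentiated and Lysfree cells and the mean and SD in black. The first 8 genes, from Adipoq to Cidec, are highest in Differentiated libraries, the next 8, from Slc7a2 to Fn1, are higher in Lysfree than in Differentiated libraries, and the values of Asns, Trib3 and Phgdh overlap between Lysfree and Differentiated cells.

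The factors that direct fat cell formation did not move together. Of 22 adipogenic transcription factors, 12 fell and 2 rose, with a median log2 fold change of -1.14. Cebpa, the late factor that holds the fat cell state, had 167, 156 and 169.7 FPKM in Differentiated and 6.33, 8.34 and 10.0 FPKM in Lysfree libraries. Every Lysfree value lay under the Undifferentiated mean of 22.9 FPKM, and the fall was 19.1-fold (adjusted p = 5.7e-16, edgeR). Pparg fell less, 5.87-fold. Cebpd, an early factor, rose 2.45-fold, from 14.7, 17.6 and 16.4 FPKM to 26.6, 43.2 and 44.5 FPKM, with Lysfree 1 the lowest of its group and still above all Differentiated libraries. Cebpb, the other early factor, had 165, 166 and 177 FPKM in Differentiated libraries and 91.2, 223 and 237 FPKM in Lysfree libraries, where Lysfree 1 lay below and Lysfree 2 and 3 above all Differentiated libraries. The change in Cebpb was 0.18 ± 0.21 (SE) on the log2 scale (adjusted p = 0.5 in edgeR), and 0.49 without Lysfree 1, so no difference was called in either case. Klf4, which acts upstream of Cebpb in these cells, rose 10.6-fold, from 6.91, 6.88 and 6.68 FPKM to 49.6, 80.8 and 77.5 FPKM. Klf15, a late factor induced by glucocorticoids, fell from 2.83, 2.89 and 3.1 FPKM to 0, 0.15 and 0.0185 FPKM, 46.9-fold, and the coactivator Ppargc1b fell 12.4-fold. Cebpd overlaps Spidr and Cebpb overlaps Tmem189.

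Storage, release and synthesis of lipids fell at most steps. Of 14 triglyceride and lipolysis genes, 11 fell and 0 rose (median log2 fold change -3.42). Both enzymes of the last step of triglyceride synthesis fell, Dgat1 from 181, 181 and 181 FPKM to 13.9, 14 and 15 FPKM and Dgat2 from 116, 119 and 115 FPKM to 10.8, 11.9 and 12.3 FPKM. The first step behaved otherwise: Gpam had 16.1, 16.9 and 15.4 FPKM in Differentiated and 9.83, 8.83 and 8.11 FPKM in Lysfree libraries, which did not overlap, and its log2 fold change of -0.79 stayed under the 2-fold threshold. The lipases fell as well, Pnpla2 (ATGL) 16.2-fold and Lipe (hormone-sensitive lipase) 32.7-fold. G0s2, the inhibitor of ATGL, fell further, from 853, 793 and 814 FPKM to 5.62, 7.71 and 10.8 FPKM. Of 20 fatty acid synthesis genes, 12 fell and 0 rose (median -1.90). Acly, which makes cytosolic acetyl-CoA, fell 4.56-fold, and Thrsp, a lipogenic nuclear protein gene, fell 159-fold, from 12.8, 13.1 and 12.2 FPKM to 0.026, 0.0719 and 0.118 FPKM. Acaca, the carboxylase that commits acetyl-CoA to fatty acids, was not called, at 10.1, 10.9 and 9.39 FPKM and 5.7, 5.96 and 5.7 FPKM (log2 fold change -0.74). Elovl6 was not called either (-0.58), and Me1, a source of NADPH, was called only without Lysfree 1 (-0.91 with it and -1.05 without it). G0s2 overlaps Lamb3.

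Most cholesterol genes fell. Of 26 genes of cholesterol synthesis and its control, 22 fell and 0 rose, with a median log2 fold change of -2.87, and the summed level went from 1409 to 1440 FPKM in Differentiated libraries to 228 to 253 FPKM in Lysfree libraries, about the 250.3 to 259.5 FPKM of Undifferentiated libraries. Insig1, the endoplasmic reticulum protein that retains SREBP when sterols are ample, fell from 190.3, 190.0 and 194 FPKM to 10.1, 8.87 and 8.53 FPKM, 20.01-fold. All Lysfree libraries lay below the Undifferentiated mean of 17 FPKM. Sqle, squalene epoxidase, fell 2.81-fold. Srebf2, which encodes the sterol-regulated factor SREBP2 itself, had 52.7, 54.2 and 52.5 FPKM and 24.6, 26.3 and 27.4 FPKM, with no overlap, and its log2 fold change of -0.96 missed the 2-fold threshold. Hmgcs1, the enzyme that commits acetyl-CoA to sterols, fell 6.96-fold, from 166, 167 and 161 FPKM to 25.6, 21.4 and 20.8 FPKM.

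The promoter of Hmgcs1 is shown because it was the only one of the 18 matched promoters of the cholesterol list that held the sterol element TCACNCCAC, on either strand, in the window from 250 bases before to 50 bases after the start site. The sequence is RefSeq's, build GRCm38.p6 (mm10), chr13:119690101-119690400, plus strand, 5′ to 3′, with the element in capitals.
Hmgcs1: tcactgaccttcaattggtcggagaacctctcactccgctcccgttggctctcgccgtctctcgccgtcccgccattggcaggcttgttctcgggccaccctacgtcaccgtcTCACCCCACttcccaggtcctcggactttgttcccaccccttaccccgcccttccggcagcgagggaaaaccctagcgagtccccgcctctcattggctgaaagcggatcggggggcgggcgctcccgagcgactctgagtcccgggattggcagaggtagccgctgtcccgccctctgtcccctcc
The same element occurred in 1.18% of the 13605 genes tested that had a RefSeq window, in 1.44% of DEGs that were lower and in 1.20% of DEGs that were higher. A match to these letters is a description and no site of binding.

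Fuel oxidation genes fell to different depths. Of 28 genes of pyruvate entry and the citrate cycle, 21 fell and 0 rose (median log2 fold change -1.53). Pcx, pyruvate carboxylase, which refills the cycle and feeds lipid synthesis, had 556, 566 and 549.8 FPKM in Differentiated and 18, 16.2 and 19.2 FPKM in Lysfree libraries, 30.0-fold lower. Cs, citrate synthase, had 155, 158 and 158 FPKM and 49.6, 43.4 and 43 FPKM, and Idh3a had 138, 139.6 and 139 FPKM and 32.4, 27.1 and 26.2 FPKM. Pcx lay below its Undifferentiated mean of 32.4 FPKM in all Lysfree libraries, whereas Cs and Idh3a lay above theirs of 33.5 and 13.3 FPKM. Pdha1, which opens the pyruvate dehydrogenase step, and Sdhb of complex II were not called, with log2 fold changes of -0.74 and -0.92. Of 29 fatty acid oxidation and peroxisome genes, 19 fell and 1 rose (median -1.53). Acadm and Acadvl, which start β-oxidation of medium and very long chains, fell 7.53-fold and 7.75-fold. The one rise was Cpt1a, the gate for fatty acids into mitochondria, from 9.26, 10.5 and 9.11 FPKM to 23.3, 21.8 and 22.1 FPKM. Of 20 glycolysis and glucose uptake genes, 15 fell and 0 rose (median -1.35). Slc2a1 (GLUT1) fell 3.08-fold, Aldoa (aldolase) 2.77-fold and Ldha 2.44-fold, while Ldhb, the other lactate dehydrogenase subunit, fell 13.3-fold, from 137, 133 and 141 FPKM to 11.7, 9.55 and 8.3 FPKM. Gapdh also fell, but its levels of 145, 219.8 and 75.3 FPKM in Differentiated 1 to 3 spread widely for so abundant a transcript and the mouse genome holds many near-identical copies of it, so its value is uncertain. Pcx overlaps Lrfn4, Acadvl overlaps Dvl2 and Gapdh overlaps Iffo1.

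Respiratory chain genes had a smaller median change, and part of it leaned on Lysfree 1. Of 81 nuclear genes of the chain, 42 fell and 0 rose (median log2 fold change -1.04), and 35 fell when Lysfree 1 was left out (median -0.92). Cycs, cytochrome c, fell 6.7-fold, from 240.3, 241 and 259 FPKM to 30.2, 37.4 and 38 FPKM, and Uqcrfs1, the Rieske protein of complex III, fell 6.19-fold. Ndufb6, a short complex I gene, had 152, 143 and 145 FPKM in Differentiated and 27.8, 70.3 and 69.6 FPKM in Lysfree libraries, where Lysfree 1 lay far under the other two. Its log2 fold change was -1.32 with Lysfree 1 and -1.02 without it. The muscle-type subunit gene Cox7a1 fell from 11.6, 8.73 and 8.68 FPKM to 0, 0.588 and 0.193 FPKM, whereas Cox5a of the same complex was not called (-0.44). Of 13 mitochondrially encoded genes 1 fell, mt-Nd1, from 3005, 2766 and 2892 FPKM to 1741, 1062 and 1124 FPKM, and without Lysfree 1 the number was 4. The call of mt-Nd1 was lost without Lysfree 2 or Lysfree 3, at -0.95 and -0.98. mt-Nd2 illustrates the dependence, at 1020.0, 943 and 999 FPKM in Differentiated and 1143, 443 and 479 FPKM in Lysfree libraries: Lysfree 1 was the highest of the 6 and Lysfree 2 and 3 the lowest, and the log2 fold change moved from -0.46 to -1.05 and past the threshold without Lysfree 1. Reads of mitochondrial genes that also match nuclear copies could be assigned to either, which leaves levels such as that of mt-Atp6, 25.2, 21.4 and 25.2 FPKM in Differentiated libraries, uncertain. Of 62 mitochondrial ribosome and import genes 20 fell and 0 rose (median -0.72), or 17 without Lysfree 1, among them Mrpl12 3.94-fold and the chaperone Hspd1 from 1128, 1115 and 1108 FPKM to 339, 348 and 342 FPKM. mt-Atp6 overlaps mt-Co3 and Hspd1 overlaps Hspe1.

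**Figure D3:**
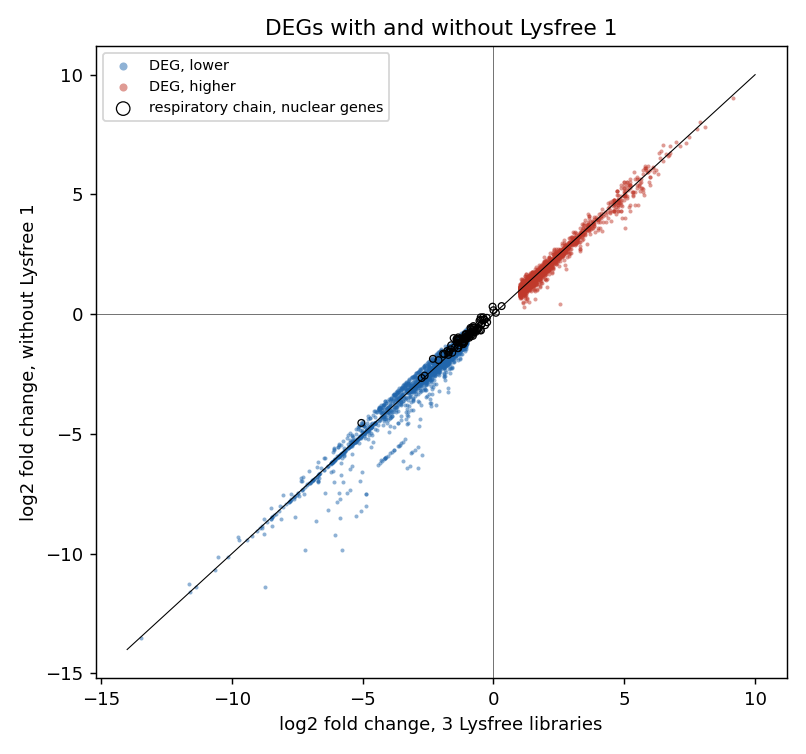
Log2 fold change of the 4507 DEGs fitted with all 3 Lysfree libraries (horizontal axis) and without Lysfree 1 (vertical axis), red for higher and blue for lower, with the 81 nuclear respiratory chain genes circled and the line of equality drawn. All DEGs keep their direction, and the median of the respiratory chain genes moves from -1.04 to -0.92 without Lysfree 1.

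The listed ATF4 and stress response targets did not rise as a group. Of 23 ATF4 and stress response targets, 4 rose, 3 fell and 16 were not called, where 8.14% and 10.5% of all genes tested were higher and lower. All 23 were at 1 FPKM or more in either group, where the shares were 11.4% and 14.6%. The median log2 fold change of the list was 0.19, and without Lysfree 1 the numbers were 5 and 2 with a median of 0.27. Asns, asparagine synthetase and a standard readout of ATF4, had 173, 171 and 171 FPKM in Differentiated 1 to 3 and 192, 152 and 146 FPKM in Lysfree 1 to 3. The groups overlapped, Lysfree 1 being the highest and Lysfree 3 the lowest of the 6, and the change was -0.01 ± 0.09 (SE) on the log2 scale (adjusted p = 0.97 in edgeR). Both groups lay above the Undifferentiated mean of 68.4 FPKM. Atf4 had 302, 302 and 317 FPKM and 174, 244 and 244 FPKM, all Lysfree libraries lower, at a log2 fold change of -0.41 that stayed under the threshold. ATF4 is controlled mainly in translation, which RNA does not show. Trib3, a feedback inhibitor of ATF4, had 99.1, 97 and 95.7 FPKM and 91.6, 111 and 116 FPKM, and the glutathione-degrading enzyme gene Chac1 had 58.6, 61.3 and 58.3 FPKM and 68.9, 101 and 101 FPKM, at 0.67. Ddit3 (CHOP) had 60.03, 55.2 and 52.1 FPKM and 71, 110.0 and 108 FPKM, and its log2 fold change crossed the threshold only without Lysfree 1 (0.85 with it and 1.01 without it). Sesn2, a leucine sensor, came near at 0.94. Ddit3 overlaps Mars.

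The ATF4 targets that did pass went both ways. Stc2, a secreted stress glycoprotein, rose 3.73-fold from 0.849, 0.799 and 0.909 FPKM to 2.79, 2.97 and 3.37 FPKM, and Nars, asparaginyl-tRNA synthetase, rose from 142, 145 and 143 FPKM to 338, 324 and 324 FPKM. Jdp2, a partner of AP-1 factors, rose 4.32-fold, and Ppp1r15a (GADD34), which reverses the block on translation, rose by 1.19 on the log2 scale. Fgf21, a hormone gene that ATF4 and PPAR factors both induce, fell from 20.7, 17.7 and 22.7 FPKM to 3.29, 2.54 and 2.98 FPKM, 6.63-fold, and Ndrg1 fell 5.36-fold. Nupr1 fell with Lysfree 1 in the fit (-1.07) and was not called without it (-0.77).

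The promoters of Asns and Fgf21 are shown because both hold the composite site of ATF4 and C/EBP factors, TGATGNAA on either strand, and the genes differed in what they did: Asns was not called and Fgf21 fell. The sequences are RefSeq's, GRCm38.p6 (mm10), written 5′ to 3′ on the gene's strand, with the site in capitals. The Asns window is chr6:7693160-7693459 and the Fgf21 window chr7:45615441-45615740, both on the minus strand.
Asns: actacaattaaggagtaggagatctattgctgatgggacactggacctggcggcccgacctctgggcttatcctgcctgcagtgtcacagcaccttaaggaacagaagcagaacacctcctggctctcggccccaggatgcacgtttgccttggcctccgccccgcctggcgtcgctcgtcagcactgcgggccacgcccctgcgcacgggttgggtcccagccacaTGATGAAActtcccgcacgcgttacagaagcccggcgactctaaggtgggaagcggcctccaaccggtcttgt
Fgf21: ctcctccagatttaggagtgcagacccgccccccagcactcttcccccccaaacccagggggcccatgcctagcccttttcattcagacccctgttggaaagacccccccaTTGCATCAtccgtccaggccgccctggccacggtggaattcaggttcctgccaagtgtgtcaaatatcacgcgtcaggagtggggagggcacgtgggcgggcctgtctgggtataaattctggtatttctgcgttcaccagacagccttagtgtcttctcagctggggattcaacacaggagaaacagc
The first base of the site lies 23 bases before the start site in Asns and 139 bases before it in Fgf21, where it reads on the other strand. Of the ATF4 list, 7 of 19 matched promoters held it, against 2.66% of all genes tested with a window, and of these 7 genes (Trib3, Chac1, Atf3, Nupr1, Fgf21, Slc7a11 and Tars) 0 rose and 2 fell, Fgf21 and, with Lysfree 1, Nupr1. Among cytosolic tRNA synthetases 5 of 12 matched promoters held it. Over all DEGs the shares were 3.30% for those higher and 2.59% for those lower.

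Amino acid enzymes and transporters changed both ways. Of 18 genes of serine, proline and asparagine synthesis and related enzymes, 2 rose and 2 fell (median log2 fold change -0.02), a share close to the 8.14% and 10.5% of all genes tested that were higher and lower. Phgdh, which opens serine synthesis, had 151, 152 and 162 FPKM and 126, 153 and 155 FPKM, with overlap. Aldh1l2, of mitochondrial folate metabolism, rose 2.85-fold, while Glul, glutamine synthetase, fell from 169, 166 and 163 FPKM to 10.6, 9.63 and 10.4 FPKM, 15.5-fold. Of 25 amino acid transporters with a count, 7 rose and 6 fell (median 0.09, or -0.03 without Lysfree 1). The largest rise was that of Slc7a2 (ENSMUSG00000031596, chromosome 8, 40862396 to 40922308), a carrier of lysine, arginine and ornithine. It had 0.0141, 0.0411 and 0.0203 FPKM in Differentiated and 2.25, 1.62 and 1.54 FPKM in Lysfree libraries, all Lysfree libraries above all others of the series, where the Undifferentiated mean was 0.151 FPKM. The rise was 6.13 ± 0.29 (SE) on the log2 scale (adjusted p = 3.5e-13 in edgeR), from a level of few reads. Slc7a1, the main carrier of the same amino acids, was more than 10 times as abundant per length and was not called, at 19.8, 21.1 and 19.8 FPKM and 25.8, 22.7 and 22.8 FPKM (log2 fold change 0.29). Slc3a2, the shared heavy chain of several exchangers, rose 2.52-fold, from 72.2, 77.3 and 76.7 FPKM to 149, 196 and 199.7 FPKM. Its light chain partner Slc7a5 rose 2.14-fold with Lysfree 1, which was its highest library at 182, 148 and 144 FPKM in Lysfree 1 to 3, and was not called without it (0.97). The neutral amino acid carriers Slc1a4 and Slc6a9 rose 2.54-fold and 3.05-fold, and the glutamate carrier Slc1a3 and the leucine carrier Slc43a1 fell 6.04-fold and 4.42-fold. Slc38a2, a carrier that amino acid shortage is known to induce, had 66.7, 66.1 and 67.9 FPKM and 95.7, 66.1 and 68.8 FPKM, overlapping. Of 20 cytosolic tRNA synthetases 1 rose, Nars, and 0 fell. Counted with no fold threshold, 10 of the 20 were higher and 5 lower, as were 4749 and 4531 of all 24130 genes tested. The summed level of the 20, Nars included, was 1147 to 1158 FPKM in Differentiated and 1400 to 1471 FPKM in Lysfree libraries. Kars, which charges tRNA with lysine, had 46.8, 45.8 and 46.8 FPKM and 39, 45.1 and 47 FPKM, a log2 fold change of -0.02. In branched-chain amino acid breakdown 14 of 23 genes fell and 1 rose (median -1.60), the cytosolic transaminase gene Bcat1 rising 3.64-fold and the mitochondrial Bcat2 falling 7.11-fold, from 86.1, 85.2 and 87.3 FPKM to 10.2, 12.5 and 12 FPKM. Aldh1l2 overlaps D10Wsu102e and Slc6a9 overlaps B4galt2.

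Of 17 genes of lysine breakdown and use with a count, 2 rose and 6 fell, against 8.14% and 10.5% of all genes. Aass and Aadat, also listed, had no count in any of the 6 libraries. Aldh7a1, of the main degradation route, was not called (0.60), and Gcdh, which takes the glutaryl-CoA that lysine yields, fell 2.7-fold. In carnitine synthesis from trimethyllysine, Tmlhe was not called (-0.24) and Aldh9a1 fell from 107, 104 and 102 FPKM to 23.6, 20.9 and 20.8 FPKM. The 2 rises were lysyl oxidases, which cross-link collagen through its lysines. Lox had 20.8, 20.7 and 18.6 FPKM in Differentiated and 204, 169 and 161 FPKM in Lysfree libraries, 9.28-fold higher, below the Undifferentiated mean of 468 FPKM, and Loxl4 rose 7.09-fold. In the same family Loxl2, which overlaps other annotated genes, fell (log2 fold change -3.55) from a low level, and Loxl1 and Loxl3 were not called (0.39 and 0.67). Plod2, which hydroxylates collagen lysines, fell 2.17-fold. Aldh7a1 overlaps Phax and Gcdh overlaps Syce2.

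Many lysosomal genes rose, while their summed level stayed below that of Undifferentiated cells. Of 47 lysosomal hydrolases and membrane proteins with a count, 22 rose and 1 fell, with a median log2 fold change of 0.93, and the summed level was 1874 to 1886 FPKM in Differentiated and 3422 to 3821 FPKM in Lysfree libraries, against 4081 to 4294 FPKM in Undifferentiated libraries. The 22 rises and the 1 fall were also the numbers without Lysfree 1. Gla, α-galactosidase A, had 6.59, 6.36 and 6.03 FPKM in Differentiated and 61.9, 57.3 and 57.2 FPKM in Lysfree libraries, 9.71-fold higher (3.28 ± 0.10 (SE) on the log2 scale, adjusted p = 3.1e-16 in edgeR). Gla differed from the summed list in that all Lysfree libraries also exceeded the Undifferentiated mean of 16.7 FPKM. Lamp1, the main membrane glycoprotein of the lysosome, had 147, 155 and 149 FPKM and 510.3, 441 and 426 FPKM, 3.2-fold higher. Hexa, the α chain of a lysosomal hexosaminidase, rose 4.29-fold and remained below its Undifferentiated mean of 211 FPKM, at 131, 142 and 137 FPKM. Manba was the single fall, 2.71-fold, and the cholesterol exporter Npc1 was not called (0.87). Manba overlaps Oaz2-ps and Npc1 overlaps Rmc1.

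Of 15 lysosomal proteases with a count 8 rose and 2 fell (median log2 fold change 1.15), and the summed level was 412 to 443 FPKM in Differentiated and 1219 to 1243 FPKM in Lysfree libraries, close to the 1182 to 1230 FPKM of Undifferentiated libraries. Ctsk, a collagen-degrading cathepsin, had 10.1, 7.78 and 9.38 FPKM and 95.5, 115 and 106 FPKM, 12.2-fold higher. Ctsl had 21.6, 20.6 and 20.8 FPKM and 119.6, 141 and 143 FPKM, 6.69-fold higher, and Scpep1, Tpp1, Ctsb and Lgmn rose 5.05-fold, 3.77-fold, 2.21-fold and 2.19-fold. Ctsd, the main aspartic protease, was not called (0.63), and Ctsc fell 3.73-fold. Of 27 genes of amino acid sensing 4 rose and 1 fell (median 0.00), against 8.14% and 10.5% of all genes tested. The rises included all 3 genes of the folliculin complex: Flcn had 10.4, 10.8 and 10.9 FPKM and 36.7, 44.7 and 43.4 FPKM, 4.07-fold higher, and its partners Fnip1 and Fnip2 rose 2.65-fold and 3.06-fold. The other was Rragd, a Rag GTPase gene, from 0 counts in Differentiated libraries to a mean of 0.143 FPKM. The kinase genes Mtor (-0.56) and Eif2ak4 (-0.41) were not called, nor was the arginine sensor gene Castor1 (0.73), while its homologue Castor2 fell 2.44-fold. Of 27 autophagy genes 3 rose and 2 fell, close to the shares of 8.14% and 10.5% over all genes tested. With no fold threshold, 15 of the 27 were higher and 6 lower, as were 4749 and 4531 of all 24130 genes tested. Their median log2 fold change was 0.31. The rises were Map1lc3b, from 7.06, 6.06 and 7.12 FPKM to 33.5, 25.4 and 25 FPKM, the cargo receptor Sqstm1 (2.28-fold) and Uvrag (2.61-fold). Those that fell, Bnip3 and Bnip3l, are receptors for mitophagy, and Bnip3 went from 304, 275 and 295 FPKM to 51.2, 35.2 and 35 FPKM. Ulk1 and Becn1 were not called (0.32 and 0.18). Ctsb overlaps Fdft1 and Map1lc3b overlaps Zcchc14.

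The promoters of Gla, Mcoln1 and Atp6v0d1 are shown because they are the genes of the lysosomal lists that both rose and held the CLEAR core TCACGTGA, the palindrome that TFEB and its relatives bind. Mcoln1, the calcium channel of the lysosome, had a log2 fold change of 1.06, and Atp6v0d1, a subunit of its proton pump, one of 1.28. The windows are RefSeq's, GRCm38.p6 (mm10), 5′ to 3′ on the gene's strand, with the CLEAR core in capitals: Gla at chrX:134600956-134601255 on the minus strand, Mcoln1 at chr8:3500269-3500568 on the plus strand and Atp6v0d1 at chr8:105566015-105566314 on the minus strand.
Gla: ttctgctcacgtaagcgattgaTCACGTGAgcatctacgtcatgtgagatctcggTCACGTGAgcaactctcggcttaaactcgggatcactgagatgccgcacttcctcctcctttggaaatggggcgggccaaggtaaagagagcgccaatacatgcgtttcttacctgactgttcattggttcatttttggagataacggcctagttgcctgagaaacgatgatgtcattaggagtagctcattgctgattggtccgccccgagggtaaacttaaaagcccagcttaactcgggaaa
Mcoln1: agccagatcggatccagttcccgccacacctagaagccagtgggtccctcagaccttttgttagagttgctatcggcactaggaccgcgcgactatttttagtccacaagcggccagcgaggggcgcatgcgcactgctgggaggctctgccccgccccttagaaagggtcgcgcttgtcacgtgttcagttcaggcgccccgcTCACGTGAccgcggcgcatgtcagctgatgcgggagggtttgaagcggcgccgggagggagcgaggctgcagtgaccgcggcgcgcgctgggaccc
Atp6v0d1: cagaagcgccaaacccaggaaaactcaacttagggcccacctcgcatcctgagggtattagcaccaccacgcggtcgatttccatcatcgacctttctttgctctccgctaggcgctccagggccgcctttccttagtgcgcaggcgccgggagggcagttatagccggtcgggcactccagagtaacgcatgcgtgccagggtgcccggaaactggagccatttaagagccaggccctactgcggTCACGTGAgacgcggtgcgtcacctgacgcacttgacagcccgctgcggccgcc
Gla held the core 2 times and the others once. It was found in 5 of the 37 matched promoters of the hydrolase and membrane list, in 1 of 12 of the protease list, and in 1.60% of all genes tested with a window. Among the DEGs, 2.63% of those higher and 1.04% of those lower held it. Ctsd, Atp6v1a and Igf2r held it and were not called, and many genes that rose, Lamp1 and Ctsk among them, did not hold these letters in this window.

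**Figure D4:**
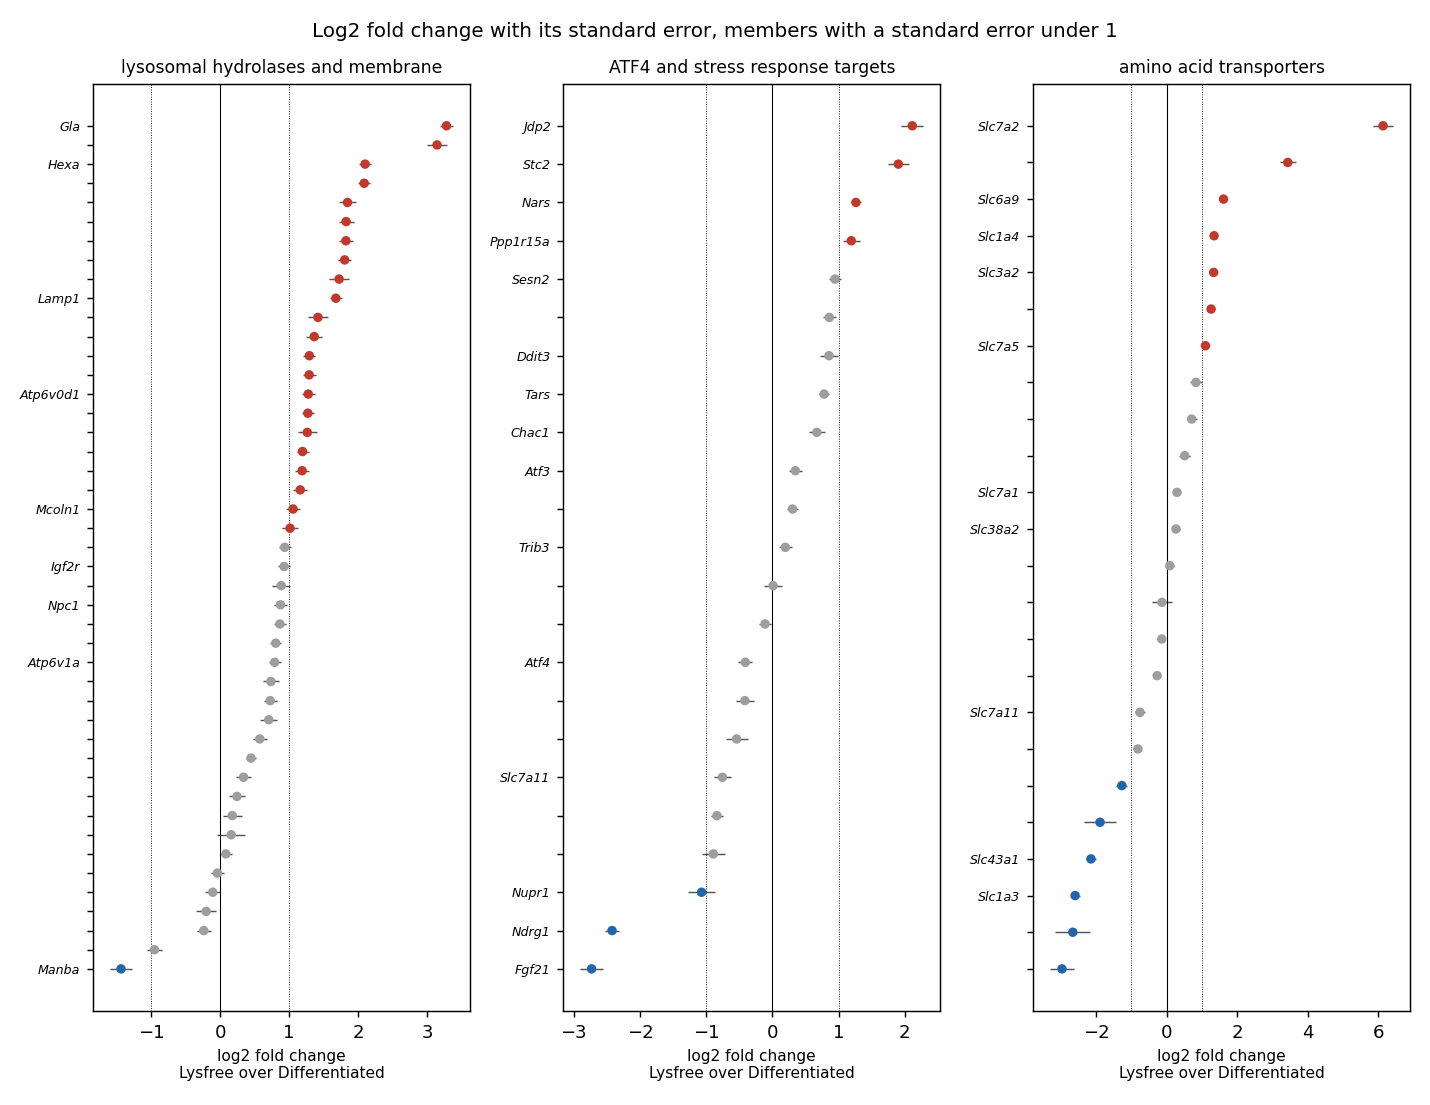
Log2 fold change, Lysfree over Differentiated, with its standard error for members of the lysosomal hydrolase and membrane, ATF4 target and amino acid transporter lists, red for DEGs higher, blue for DEGs lower and grey for genes not called, dotted lines at a 2-fold change, and names given for genes described in the text. The 22 lysosomal rises form a continuous series up to Gla, ATF4 targets spread on both sides of 0, and Slc7a2 stands far above the other transporters; 2 lysosomal genes and 1 transporter with a standard error of 1 or more are not drawn.

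Most cell division genes fell. Of 45 genes of DNA replication and mitosis, 26 fell and 1 rose, with a median log2 fold change of -1.57. Mki67, a marker of cycling cells, had 8.08, 8.64 and 7.08 FPKM in Differentiated and 1.49, 1.51 and 1.49 FPKM in Lysfree libraries, close to the Undifferentiated mean of 1.9 FPKM. The mitotic cyclin gene Ccnb2 had 14.7, 14.3 and 15.5 FPKM and 1.38, 1.61 and 1.38 FPKM, and Tk1, thymidine kinase, fell 9.15-fold. The cyclin gene Ccne1, of entry into S phase, fell 5.57-fold. The single rise was Mcm2, of the replicative helicase, from 15.1, 14.8 and 15.6 FPKM to 31.4, 35.5 and 32.2 FPKM, while its partner Mcm5 fell 2.52-fold. Of 18 G1 cyclins and inhibitors of cyclin-dependent kinases, 4 rose and 4 fell, against 8.14% and 10.5% of all genes tested. Ccnd1, the cyclin of early G1, rose 3.6-fold, from 12.1, 13 and 12.9 FPKM to 42.1, 45.1 and 43.8 FPKM. The inhibitor Cdkn2b (p15) had 18.3, 18.5 and 17.9 FPKM and 75.9, 96.4 and 92.4 FPKM, 5.06-fold higher, and Cdkn2a rose 2.31-fold. Cdkn2c (p18) went the other way, from 34.2, 33.9 and 35.9 FPKM to 6.8, 7.14 and 8.27 FPKM, and Cdkn1a (p21) and Cdkn1b (p27) were not called (-0.19 and 0.23). Ribosome biogenesis, which depends on mTORC1, had 2 rises (Utp15 and Pwp2) and 0 falls among 60 genes, with a median of 0.28. With no fold threshold, 29 of the 60 were higher and 5 lower, as were 4749 and 4531 of all 24130 genes tested. Nop56 had 74.9, 74.2 and 81.2 FPKM and 75.5, 75.2 and 75.5 FPKM. Tk1 overlaps Afmid, Ccnd1 overlaps Oraov1 and Nop56 overlaps Idh3b.

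Secreted inflammatory genes changed in both directions. Il6, the cytokine gene, had 0.293, 0.31 and 0.383 FPKM in Differentiated and 5.37, 3.8 and 4.35 FPKM in Lysfree libraries, 14.2-fold higher (3.83 ± 0.23 (SE) on the log2 scale, adjusted p = 1.8e-11 in edgeR). The level was low, and all Lysfree libraries lay above all Differentiated libraries and the Undifferentiated mean of 0.245 FPKM. Of 20 IL-6 family and signalling genes with a count, 5 rose and 3 fell, against 8.14% and 10.5% of all genes tested. The receptor chains Il6st (gp130) and Osmr rose 2.62-fold and 3.42-fold, Il6st from 16.9, 16.8 and 16.4 FPKM to 47.8, 39.4 and 38.3 FPKM. The binding chain Il6ra (0.32), the signal carrier Stat3 (0.51) and its target Socs3 (0.81) were not called. Lif and Il11, other ligands of gp130, fell 3.23-fold and 3.61-fold from levels under 1 FPKM, and the call of Il11 was lost without Differentiated 3 (-1.44). Ctf1 fell with Lysfree 1 (-1.11) and was not called without it (-0.95). Stat3 overlaps Stat5a.

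Of 33 chemokines and inflammatory proteins with a count, 9 rose and 7 fell (median log2 fold change 0.15). Over all genes tested, 8.14% were higher and 10.5% lower. Csf1, the growth factor of macrophages, had 8.66, 9.55 and 10.1 FPKM and 80.8, 98.6 and 95.7 FPKM, 10.2-fold higher. Ptx3, a soluble pattern receptor, rose 7.5-fold, Cxcl5 8.72-fold and Ccl2 3.19-fold, with Ccl2 at 4.54, 4.15 and 8.32 FPKM and 15.4, 16.8 and 19.5 FPKM. Cxcl10 fell from 3.04, 2.43 and 3.3 FPKM to 0.0253, 0.163 and 0 FPKM, Ccl5 5.49-fold, and the complement gene C3 from 154, 157 and 146 FPKM to 31.1, 22.1 and 26.7 FPKM. Cxcl1, Cxcl12, Lcn2 and Ptgs2 were not called (-0.34, -0.01, 0.67 and 0.15). Cxcl10 overlaps Art3.

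Most interferon response genes fell, 17 of 29 lower and 2 higher (median log2 fold change -1.27), and without Lysfree 1 the numbers were 16 and 2. The interferon factor gene Irf7 had 5.05, 4.29 and 5.84 FPKM and 1.43, 1.43 and 1.57 FPKM. Mx1, an antiviral GTPase, fell 15.4-fold, from 2.49, 3.22 and 3.21 FPKM to 0.0752, 0.166 and 0.299 FPKM. Both genes were below their Undifferentiated means of 10.3 and 6.14 FPKM in every Lysfree library. Isg15, a ubiquitin-like modifier, fell with all libraries (-1.09) and was not called without Lysfree 1 (-0.93) or without Differentiated 3 (-0.93). Against the rest of the list, B2m, the light chain of MHC class I, rose 2.28-fold, from 396, 408 and 423 FPKM to 952, 885 and 844 FPKM, so that the list's summed level was higher in Lysfree libraries (1410 to 1460 FPKM) than in Differentiated libraries (888 to 988 FPKM) although its median log2 fold change was below 0. Bst2 was the other rise (1.05), at 0.98 without Lysfree 2 and 1.00 without Lysfree 3, under the threshold. Irf7 overlaps Phrf1.

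Preadipocyte genes rose in part, and matrix genes changed both ways. Of 27 preadipocyte and fibroblast markers with a count, 15 rose and 1 fell, with a median log2 fold change of 1.20. Dlk1, the preadipocyte factor Pref-1, had 29.6, 29.9 and 31.5 FPKM and 61.1, 67.5 and 67 FPKM, far below the Undifferentiated mean of 269.9 FPKM. Ly6a, the surface antigen Sca-1, had 72.5, 67.4 and 73.8 FPKM and 418, 374 and 378 FPKM, 5.72-fold higher and above the Undifferentiated mean of 94.1 FPKM. Acta2, smooth muscle actin, rose 10.3-fold, Thy1 3.35-fold and Pdgfrb 3.74-fold, and Pdgfra missed the threshold (0.95) unless Lysfree 2 or Lysfree 3 was left out (both 1.00). Of 25 collagen chains with a count, 7 rose and 7 fell, where 8.14% and 10.5% of all genes tested were higher and lower. Their summed level was 4103 to 4280 FPKM in Differentiated and 2515 to 2856 FPKM in Lysfree libraries, and the median log2 fold change was 0.09 over all 25 and -0.66 over the 19 at 1 FPKM or more. Col6a3, a chain of the microfibrillar collagen of fat, fell from 609.5, 649.9 and 544 FPKM to 104, 99.7 and 105 FPKM, 5.59-fold, and Col15a1 of basement membranes fell 16.4-fold. Col1a2 rose 2.06-fold, from 196, 203 and 199 FPKM to 403, 386 and 391 FPKM, while its partner chain Col1a1 was not called (-0.08), and both stayed far below their Undifferentiated means of 1282 and 1887 FPKM. Col14a1 rose from 0.0369, 0.0306 and 0.053 FPKM to 1.27, 1.32 and 1.18 FPKM.

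Of 41 other matrix genes and matrix proteases, 14 rose and 9 fell (median log2 fold change 0.67). Fn1, fibronectin, had 61.8, 63.2 and 50.9 FPKM in Differentiated and 702, 726 and 728 FPKM in Lysfree libraries, 12.8-fold higher (adjusted p = 5e-18 in edgeR) and above the Undifferentiated mean of 380.3 FPKM in all 3. It was among the 5 largest gains of FPKM of any gene. Ogn, a small leucine-rich proteoglycan, had 1.91, 1.61 and 1.88 FPKM and 76.4, 42.8 and 36.6 FPKM, with Lysfree 1 the highest, against an Undifferentiated mean of 332 FPKM. Mmp2, gelatinase A, rose 3.34-fold. Elastin (Eln) fell 6.42-fold. Ogn overlaps Cenpp.

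Glucocorticoid and cAMP targets changed in both directions. Of 20 glucocorticoid targets with a count, 2 rose and 7 fell (median log2 fold change -0.61). The shares over all genes tested were 8.14% higher and 10.5% lower. Fkbp5 had 16.2, 16.2 and 14.8 FPKM and 12.2, 13 and 13.1 FPKM, and Tsc22d3 (GILZ) had 34.3, 33.5 and 33 FPKM and 50.2, 50.7 and 49.3 FPKM, neither called. Hsd11b1, which regenerates active glucocorticoid and is itself a fat cell gene, fell 8.3-fold, and Rgs2 rose 2.29-fold. Of 20 cAMP targets and phosphodiesterases with a count, 4 rose and 3 fell (median 0.51). Nr4a1 was not called, at 8.58, 9.06 and 10.6 FPKM and 14.3, 14.7 and 16.6 FPKM, Pde4b rose 2.55-fold, and Pde3b, through which insulin restrains lipolysis, fell 2.19-fold. Fos, an immediate early gene, fell from 9.01, 8.36 and 7.92 FPKM to 0.653, 0.557 and 0.482 FPKM. Of 23 endoplasmic reticulum stress genes, 2 rose and 9 fell. Xbp1, the factor of the secretory programme, had 77.7, 76.5 and 78.7 FPKM and 22, 18 and 18.2 FPKM, Pdia4 fell 4.44-fold and Herpud1 rose 2.29-fold, while the chaperone Hspa5 (BiP) was not called (-0.17). Of 31 antioxidant and glutathione genes, 1 rose (Gpx1, 2.42-fold) and 7 fell, among them Mgst3 from 479.5, 475 and 495 FPKM to 25.9, 38.6 and 41 FPKM, and the NRF2 targets Nqo1 and Hmox1 were not called (-0.21 and 0.21). Hsd11b1 overlaps Lamb3.

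**Figure D5:**
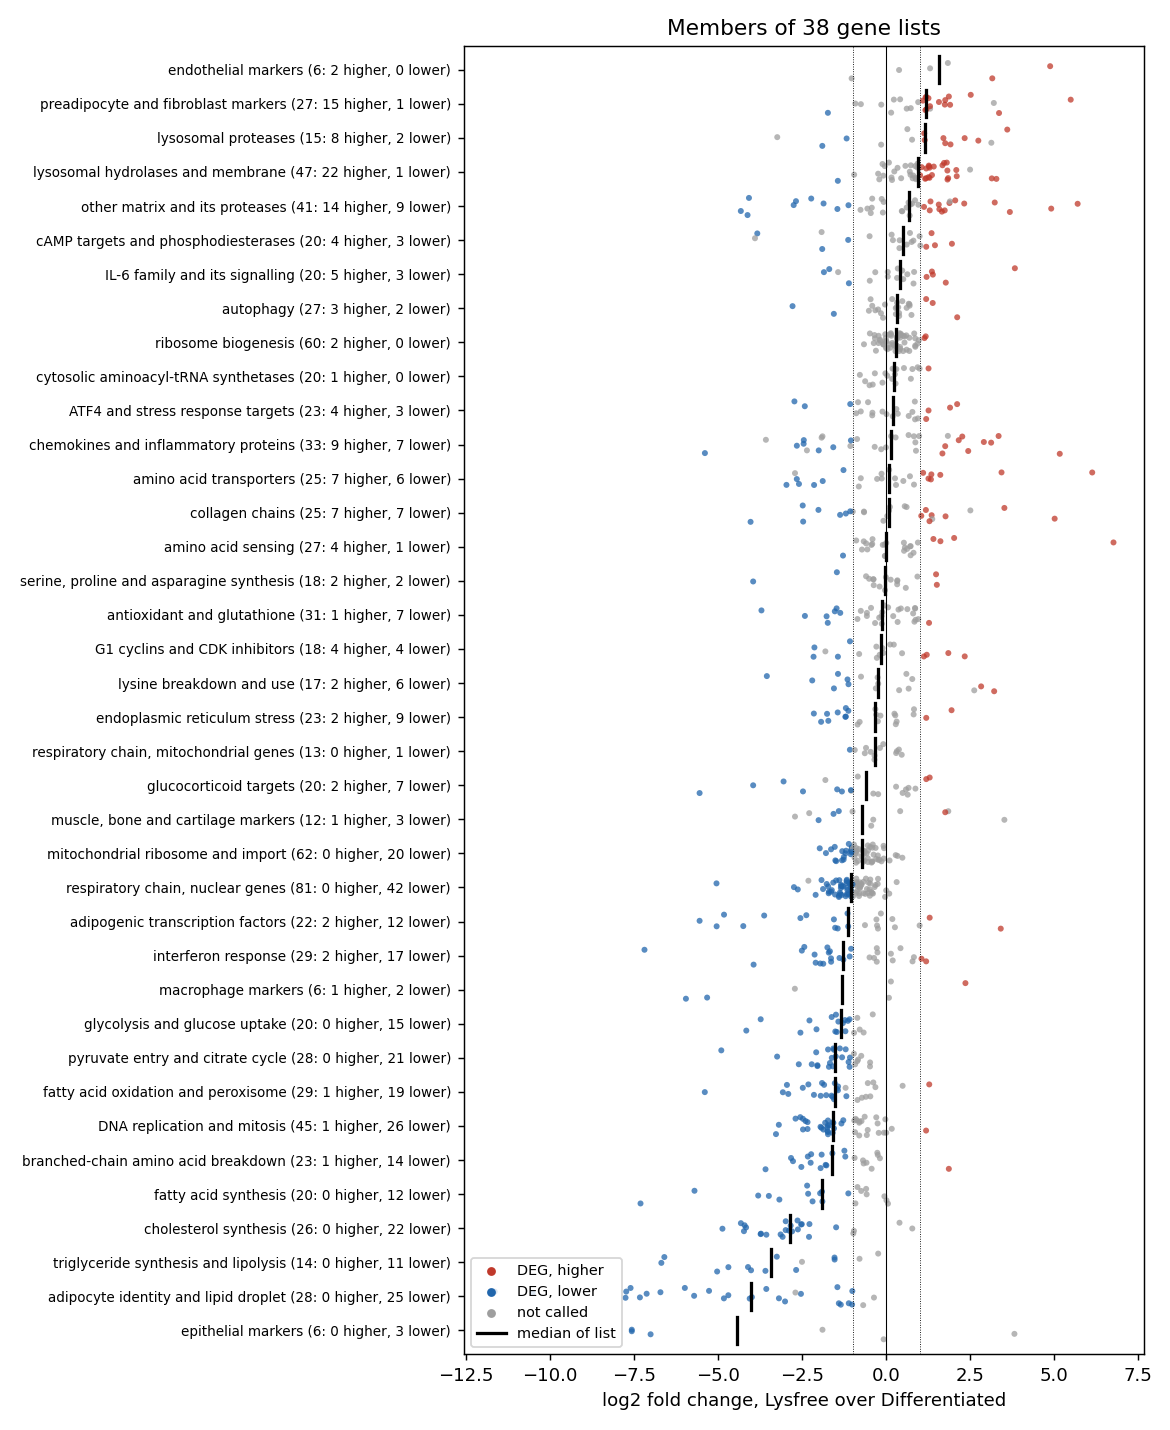
Log2 fold change, Lysfree over Differentiated, of the members of 38 gene lists, ordered by their medians (black bars), with red points for DEGs higher, blue for DEGs lower and grey for genes not called, and dotted lines at a 2-fold change. The lists of fat cell identity, triglyceride, cholesterol and fatty acid genes lie lowest apart from 6 epithelial markers, while adipogenic transcription factors have a median of -1.14, and the preadipocyte and lysosomal lists lie highest apart from 6 endothelial markers, which summed to at most 0.703 FPKM per library.

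The genes at the far ends of the comparison included several outside these lists. Among genes at 5 FPKM or more in the higher group with no overlap between groups, the processed pseudogene Gm48106 led the rises, from 0, 0.0559 and 0 FPKM to 17.4, 15.6 and 12.8 FPKM, at least 89.3-fold. A processed pseudogene can take reads of its parent gene, so this value is uncertain. Rhag, an ammonia channel gene known from red cells, had 0.0553, 0 and 0 FPKM and 6.98, 4.42 and 4.32 FPKM, at least 74.7-fold higher, and its Undifferentiated mean was 0.138 FPKM. Ostn, the secreted peptide osteocrin, had 0.591, 0.679 and 0.87 FPKM and 34.9, 23.5 and 23.9 FPKM, 39.9-fold higher, with Lysfree 1 the highest. Masp1, a complement protease gene, had 1.26, 1.43 and 1.32 FPKM and 36.8, 34.4 and 33.3 FPKM, 27.1-fold higher. Id2, an inhibitor of helix-loop-helix factors, had 0.265, 0.683 and 0.33 FPKM and 11.3, 11.1 and 10.3 FPKM, and Cyp4b1, a fatty acid hydroxylase, 0.602, 0.785 and 0.686 FPKM and 16.3, 13.6 and 14 FPKM against 0.0737 FPKM in Undifferentiated cells. Atp1b1, a sodium pump subunit, rose 19.5-fold, from 2.22, 2.51 and 2.59 FPKM to 53.4, 40.1 and 43.6 FPKM. Ppef1, Rerg, Ifitm6, Flrt2, Megf10, Samd5 and Fam131b completed the largest rises, between 16.6-fold and 39.4-fold. Masp1 overlaps Rtp4, Atp1b1 overlaps Nme7 and Fam131b overlaps Clcn1.

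Among the largest falls, Sema3g, a secreted guidance factor of the semaphorin family, had 28.9, 30.4 and 29 FPKM in Differentiated and 0.0125, 0.0578 and 0.0227 FPKM in Lysfree libraries. Vsir, an immune checkpoint gene, had 11.2, 11.2 and 10.8 FPKM and 0, 0.0105 and 0.0205 FPKM, at least 314-fold lower, and Sprr1a, a cornified envelope gene, 22.8, 25.2 and 24.9 FPKM and 0.0706, 0 and 0.0639 FPKM, at least 111-fold lower. Ppp1r1a, an inhibitor of protein phosphatase 1, the antisense gene 4631405J19Rik and the noncoding gene Smkr-ps were at 0 in all Lysfree libraries and at least 65.9-fold, 108-fold and 27.7-fold lower. The largest gains of FPKM besides Fn1 were the ferritin genes Ftl1, from 385, 368 and 384 FPKM to 1253, 1207 and 1195 FPKM, and Fth1, from 1771, 1711 and 1890.0 FPKM to 3308, 3515 and 3512 FPKM, together with Ifitm3 and B2m. Both ferritin chains, which store iron, have many processed copies in the mouse genome, and Fth1 lay at the threshold, with a log2 fold change of 1.01 that dropped under it without Differentiated 2, Lysfree 2 or Lysfree 3 (0.98 to 0.99). Vsir overlaps Cdh23 and 4631405J19Rik overlaps Prdm11.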

How the data were processed

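Paired-end poly A libraries of 3T3-L1 cells numbered 9, of which the 3 Differentiated and 3 Lysfree libraries were compared, and groups were taken from the sample labels. Trimming and mapping to mm10 with HISAT2 (version 2.0.5 in the submitters' processing notes) were done by the authors, and raw counts per gene were deposited. featureCounts 1.5.0-p3 is also listed in those notes, and the strand setting and annotation release are not given in the sources used here. FPKM were computed by the authors from the counts, gene lengths and library totals, and are printed as levels. Without a stated strand setting, reads of a gene and of an overlapping or antisense gene could be assigned to either.

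Genes with a count in any of the 6 libraries were tested with edgeR 4.0.16 in R 4.3.3 (TMM normalization, glmQLFit, glmQLFTest, Benjamini-Hochberg adjustment). The thresholds of a DEG were 0.05 for the adjusted p and 2-fold for the change. A standard error is the log2 fold change divided by the root of its F statistic. A fold bound compares mean counts scaled to library totals with 3 counts per library. Totals of 16044046 to 19223863 counts set the precision, and floors cover counting error only. The fits were tested on simulated data. The 38 gene lists, the genes named and the tests were chosen with earlier results of these data known. Named genes were the 15 largest rises and 15 largest falls at 5 FPKM or more without overlap of the groups, chosen anchor genes of each list, the 3 largest rises and 3 largest falls called in each list at 1 FPKM or more, the 5 largest gains and 5 largest losses of FPKM, and the 6 most abundant genes that departed upwards and downwards in Lysfree 1. Cd14, Comp, Tek, Vwf, Aass, Aadat, Loxl1, Loxl2, Loxl3, Krt8, Krt18, Rragd, Ppp1r15a, Utp15, Pwp2, Mcoln1, Atp6v0d1 and other genes shown for a promoter match were named after their values were seen. Some genes that the rule names are not reported here. Promoter windows came from RefSeq (GRCm38.p6), the first listed for each gene.

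The fit was repeated with a replicate block, on all 9 libraries, without each replicate in turn, with no scaling beyond library size and with factors from the median of ratios. Low genes were also filtered with filterByExpr or by a minimum of 10 counts per library. DESeq2 1.42.0, limma 3.58.1 on log2 FPKM with 1 or 0.1 added, glmTreat for a 2-fold change and a fit read without any fold threshold were the other alternatives.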

Additional observations from a re-analysis of the deposited data

How the results depend on the processing

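Of 4507 DEGs, 1963 higher and 2544 lower, the number fell to 2891 (1264 and 1627) with at least 10 counts in every library, to 2657 (1105 and 1552) in edgeR's test against a 2-fold change and to 2198 (823 and 1375) with limma on log2(FPKM + 1), and was 9280 (4749 and 4531) with no fold threshold. All other alternatives left the counts within 1.5 times: DESeq2 gave 1756 and 2434, with 5614 genes given no adjusted p, and scaling by library sizes alone gave 2203 and 2359, with all genes shifted by a median of 0.07 on the log2 scale. Leaving out each replicate gave 1819 to 1918 higher and 2301 to 2582 lower. Of the 247 named genes called, 0 changed direction in the fits that tested them, the test against a 2-fold change aside. Of all 347 named genes, 47 were untested with at least 10 counts in every library and 9 with filterByExpr. Calls were lost for 5 and gained for 5 without Lysfree 1 and lost for 20 with limma on log2(FPKM + 1). Among these, Col1a2 and Bst2 were also lost with at least 10 counts in every library, and Fth1 with DESeq2.

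With a replicate block, 1821 genes were higher and 2352 lower. No pairing by replicate number was seen. Deviations from the group means of libraries with the same number correlated at 0.00978, -0.0242 and 0.0272 across 13617 genes. For libraries with different numbers, r was -0.0328 to 0.0238. Genes are not independent replicates, and with Lysfree 1 apart from its group these correlations cannot exclude a pairing.

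Depth limits genes with few reads. A level at the floor says that a gene was not detectable at this depth. Only RNA was measured, at a single time, and replicate cultures are not described.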

Other observations

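The genes that departed in Lysfree 1 bore on single calls. Of the 216 genes that were more than 2-fold lower in Lysfree 1 than in both other Lysfree libraries, 19 were DEGs lower with and without Lysfree 1, 21 were lower only with it and 9 were higher only without it. Rpl23a, a gene of the large ribosomal subunit, had 83.6, 532 and 514 FPKM in Lysfree 1 to 3 and 503 to 525 FPKM in Differentiated libraries. Rpl36, of the same subunit, had 229, 559 and 546 FPKM in Lysfree 1 to 3 and 966 to 1054 FPKM in Differentiated libraries, and its log2 fold change went from -1.14 to -0.84 without Lysfree 1. Both ribosomal genes have many processed copies, so their levels are uncertain. Ppp1r14b, an inhibitor of protein phosphatase 1, had 79.9, 291 and 299 FPKM in Lysfree 1 to 3. In the other direction, mt-Nd5 had 1081, 445 and 446 FPKM in Lysfree 1 to 3 against 510 to 555 FPKM in Differentiated libraries, and mt-Nd6, encoded on the opposite strand of the mitochondrial genome and overlapping mt-Nd5, had 1183, 368 and 394 FPKM. The cause was not tested.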
